A study of Arabidopsis thaliana and Ginkgo biloba and Brassica rapa with 14 samples.

Results

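Methylated cytosines in the tRNAs of Caulerpa taxifolia, a green macroalga, were compared site by site with those of 4 vascular plants. Of 59 tRNA sites listed for 6 species, 26 held a percentage in C. taxifolia, and 21 of these also held one in at least 2 vascular plants and were compared. The compared sites comprised 19 sites in 9 nuclear isodecoders, the name used here for tRNAs that share an anticodon, and 2 sites in chloroplast tRNAs. C. taxifolia was represented by wild type fronds of an alga grown in artificial seawater. The vascular plants were wild type Arabidopsis thaliana seedlings of 10 days, Brassica rapa, Triticum durum (durum wheat) flag leaf and Ginkgo biloba. The labels give leaf for B. rapa and G. biloba, whereas the study's methods name shoot apexes. Cells of the single-celled alga Nannochloropsis oculata, also wild type and in log phase, served as a further alga. Every species was measured by RNA bisulfite sequencing (RBS-seq) of gel purified small RNA, with 3 libraries for A. thaliana and 1 library for each other species, and no markers of tissue were measured in them.

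In RBS-seq, bisulfite turns unmodified cytosines into bases read as thymine, and the methylation percentage of a site is the share of its reads that still hold a cytosine. The A. thaliana percentage is a pooled value of the authors, deposited without a spread, and all other percentages come from 1 library. Of its 47 values, 31 are whole, 13 are whole numbers divided by 3 and 3 are whole numbers divided by 2, and how many of the 3 libraries entered each site is not stated in the sources used here. The read depth of a site is unknown beyond the minimum coverage of 5 reads that the authors required, so neither a counting interval nor a test could be given, and a listed 0 has no known detection limit. The differences below are therefore descriptions. The range over the vascular plants, used as a yardstick, is a spread between species and not an error of measurement. The mark for calling a site methylated was set at 20%.

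5-methylcytosine (m5C) is placed in tRNAs by enzymes with separate target positions. TRDMT1, also called DNMT2, methylates C38 in the anticodon loop of tRNA Asp and some other tRNAs, and enzymes of the TRM4 family (NSUN2 in mammals, TRM4B in A. thaliana) methylate C48 to C50, where the variable loop meets the T stem. In humans, NSUN6 methylates C72 in the acceptor stem. These marks are known to protect tRNAs from cleavage and to help keep their fold.

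Consensus sequences of the compared nuclear isodecoders are shown so that the sites can be seen in place. They are the deposited A. thaliana sequences (TAIR10), written 5′ to 3′, and not those of C. taxifolia. Capitals mark the positions at which the table lists a percentage for C. taxifolia. tRNA Thr(AGT), which C. taxifolia alone had a value for, is added at the end.
Asp(GTC): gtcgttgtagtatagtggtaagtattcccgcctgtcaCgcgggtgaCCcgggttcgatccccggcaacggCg
Gly(GCC): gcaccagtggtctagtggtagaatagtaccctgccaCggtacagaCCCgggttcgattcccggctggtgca
Glu(TTC): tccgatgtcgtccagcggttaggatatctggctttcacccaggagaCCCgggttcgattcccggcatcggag
Gln(TTG): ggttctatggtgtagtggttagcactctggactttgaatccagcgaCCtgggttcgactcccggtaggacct
Lys(CTT): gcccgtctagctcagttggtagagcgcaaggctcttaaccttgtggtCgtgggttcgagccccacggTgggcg
Ile(AAT): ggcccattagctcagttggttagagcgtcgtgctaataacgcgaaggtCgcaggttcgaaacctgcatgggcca
Ser(AGA): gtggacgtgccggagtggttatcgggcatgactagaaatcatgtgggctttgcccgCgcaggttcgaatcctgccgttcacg
Ser(GCT): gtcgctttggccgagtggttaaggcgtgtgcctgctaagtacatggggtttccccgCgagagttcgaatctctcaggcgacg
Ser(TGA): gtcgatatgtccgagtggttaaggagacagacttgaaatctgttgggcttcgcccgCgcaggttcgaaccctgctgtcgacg
Thr(AGT): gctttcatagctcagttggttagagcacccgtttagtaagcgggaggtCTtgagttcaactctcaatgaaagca

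Each consensus stands for several A. thaliana genes. tRNA Asp(GTC) is encoded by 25 genes, among them AT1G03515 (chr1:877648-877719), and tRNA Gly(GCC) by 22, among them AT1G06860 (chr1:2107398-2107468). tRNA Glu(TTC) has 11 genes, among them AT1G09110 (chr1:2939417-2939488), and tRNA Gln(TTG) has 7, among them AT1G21420 (chr1:7499733-7499804). tRNA Lys(CTT) has 17 genes, among them AT1G01890 (chr1:309275-309347), and tRNA Ile(AAT) has 17, among them AT1G06480 (chr1:1978084-1978157). The 3 tRNA Ser isodecoders have 37 genes for AGA, 11 for GCT and 7 for TGA. All these positions are gene bodies, and the strand was not used. RefSeq lists 10 of the 11 tRNA Glu(TTC) genes as tRNA genes, and all genes of the other isodecoders in this paragraph.

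At most of the compared nuclear sites that the vascular plants methylate, C. taxifolia was methylated too, but mostly at lower percentages. Sites not determined in C. taxifolia are outside this statement. The study shows only cytosines that were methylated in any of its species, and most of these species are vascular plants. The vascular median was 80% or more at 13 of the 19 nuclear sites. Such a list may favor sites that are high in the plants, and its effect on the gaps below was not tested. Of the 19 nuclear sites, 4 were kept, meaning methylated and not below the lowest vascular plant, 11 were lowered, meaning methylated but below that plant, and 3 were lost, meaning under 20% where the vascular median was not. The remaining site was under 20% in both and no site was gained. C. taxifolia lay below the lowest vascular plant at 15 nuclear sites, which is 71.4% of all 21 sites compared, and above the highest at 2, or 9.52%. Over the 19 sites its percentages ran from 0 to 94 with a median of 57, and the vascular medians from 12 to 96.8 with a median of 89. The median gap below the vascular median was 29.7 percentage points. At 10 of the 19 sites the gap to the lowest plant was wider than the whole range among the vascular plants.

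**Figure D1:**
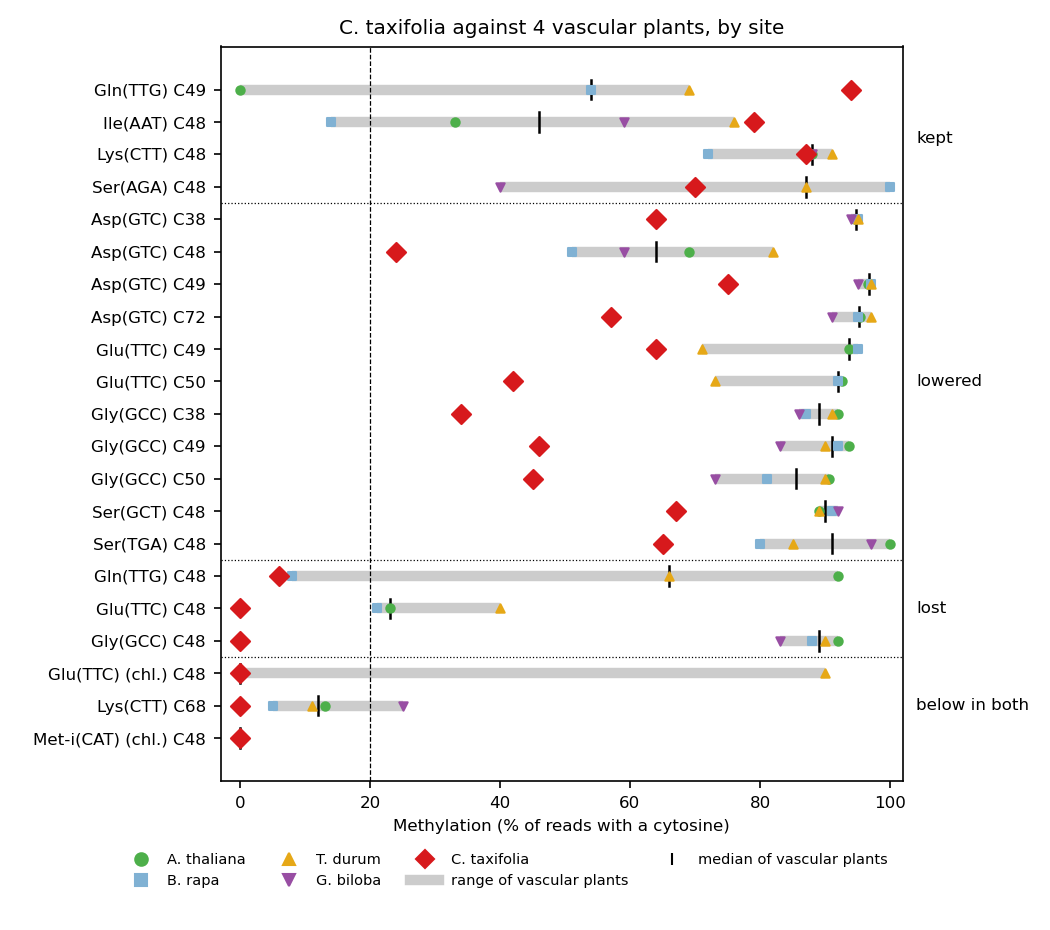
Methylation percentage of each of the 21 compared sites in C. taxifolia (red diamonds) and the vascular plants (other symbols), grouped by class, with a grey bar for the range of the vascular plants, a black tick for their median and a dashed line at 20%. Red diamonds lie to the left of the grey bar at all 11 lowered sites, by 7 to 52 points, and at the 3 lost sites, of which Gln(TTG) C48 is only 2 points away. The label chl. marks the 2 chloroplast tRNAs.

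C38 is the anticodon loop target of TRDMT1, and it was methylated in C. taxifolia in both tRNAs with a value. In tRNA Asp(GTC), C38 was methylated at 94.7% in A. thaliana, 95% in B. rapa, 95% in T. durum and 94% in G. biloba, against 64% in C. taxifolia and 42% in N. oculata. The vascular plants spanned 1 point here, and C. taxifolia was 30 points below the lowest of them. In tRNA Gly(GCC), C38 stood at 92% in A. thaliana, 87% in B. rapa, 91% in T. durum and 86% in G. biloba, against 34% in C. taxifolia and 13% in N. oculata. C. taxifolia was 52 points below the lowest plant, the widest gap of the lowered class, and both algae were below every vascular plant at both C38 sites.

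tRNA Asp(GTC) also carries sites in the variable loop, the T stem and the acceptor stem, and all 4 of its sites with a C. taxifolia value were lowered. At C48, the base before the T stem, the percentages were 69 in A. thaliana, 51 in B. rapa, 82 in T. durum and 59 in G. biloba, against 24 in C. taxifolia and 64 in N. oculata. At C49, which opens the T stem, they were 96.7, 97, 97 and 95 in the same order of plants, against 75 in C. taxifolia and 82 in N. oculata. At C72, the acceptor stem position that pairs with the first base of the tRNA, the plants had 95.3, 95, 97 and 91, against 57 in C. taxifolia and 60 in N. oculata. The shape of the profile was shared. C48 was the lowest and C49 the highest of the 4 sites in C. taxifolia and in every vascular plant. In T. durum the highest value was a tie, as C49 and C72 both had 97%. In N. oculata, in contrast, C38 was the lowest. The mean over the 4 sites was 55% in C. taxifolia and 62% in N. oculata, and between 84.5% and 92.8% in the vascular plants. At position 50 the table lists a G for C. taxifolia in place of the cytosine, which was methylated at 95.7% in A. thaliana, 96% in B. rapa, 96% in T. durum, 92% in G. biloba and 82% in N. oculata. In the A. thaliana sequence this position pairs with a G at position 64, and the C. taxifolia base there was not analysed here.

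tRNA Gly(GCC) was methylated at 4 sites to a similar degree within each vascular plant, and unevenly in C. taxifolia. At C48 the plants had 92% in A. thaliana, 88% in B. rapa, 90% in T. durum and 83% in G. biloba, and C. taxifolia was listed at 0. At C49 they had 93.7, 92, 90 and 83, against 46 in C. taxifolia, and at C50 they had 90.7, 81, 90 and 73, against 45. C48 was thus 83 points below the lowest plant, while its neighbours C49 and C50 in the same tRNA were 37 and 28 points below. In N. oculata all 4 sites were listed at 13%, under the 20% mark. The mean over the 4 sites was 31.3% in C. taxifolia against 81.3% to 92.1% in the vascular plants.

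**Figure D2:**
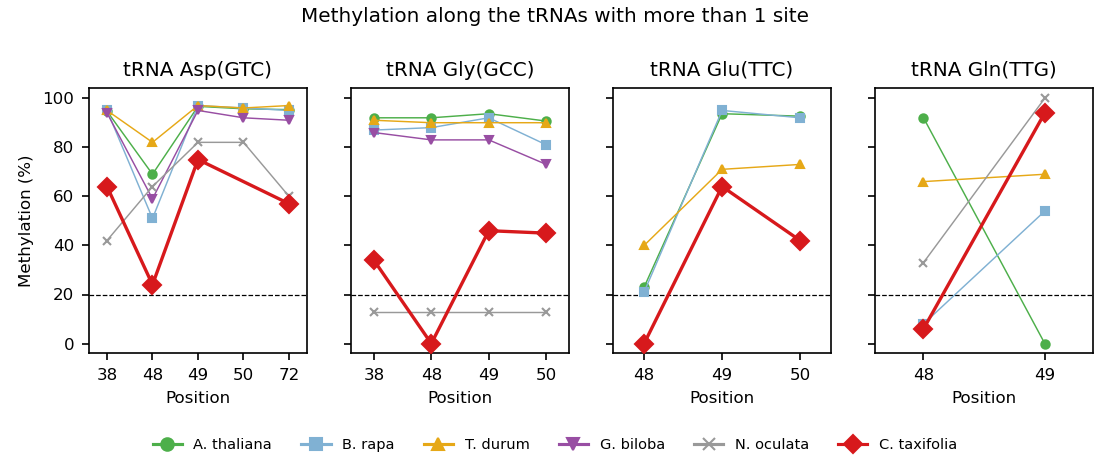
Methylation percentage (vertical axis) by structural position (horizontal axis) in the 4 tRNAs with neighbouring sites, with a line for each species and a dashed line at 20%. C. taxifolia (red diamonds) is lowest at position 48 in all 4 panels, at 24% in Asp(GTC), 0 in Gly(GCC), 0 in Glu(TTC) and 6% in Gln(TTG), and has no point at position 50 of Asp(GTC), where it holds a G.

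tRNA Glu(TTC) had values in 3 vascular plants and none in G. biloba or N. oculata. Its C48 was weakly methylated in the plants, with 23% in A. thaliana, 21% in B. rapa and 40% in T. durum, and was listed at 0 in C. taxifolia. C49 had 93.7%, 95% and 71% in these plants and 64% in C. taxifolia, and C50 had 92.7%, 92% and 73% against 42%. C49 and C50 were therefore lowered, and C49 was only 7 points below T. durum, the narrowest gap of the lowered class.

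tRNA Gln(TTG) behaved differently at its 2 sites. C48 had 92% in A. thaliana, 8% in B. rapa and 66% in T. durum, against 6% in C. taxifolia and 33% in N. oculata. C. taxifolia was 2 points below B. rapa, so the loss rests on the vascular median of 66% and not on a gap to every plant. C49 had 0% in A. thaliana, 54% in B. rapa and 69% in T. durum, against 94% in C. taxifolia and 100% in N. oculata. Here both algae lay above all 3 plants, C. taxifolia by 25 points over the highest, and the plants themselves spanned 69 points. G. biloba was not determined at either site.

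C48 of the remaining nuclear tRNAs was methylated in C. taxifolia at every compared site. In tRNA Ile(AAT), C48 had 33% in A. thaliana, 14% in B. rapa, 76% in T. durum and 59% in G. biloba, against 79% in C. taxifolia, which was 3 points above the highest plant. In tRNA Lys(CTT), C48 had 88%, 72%, 91% and 88% in the same order, against 87%. This was the only nuclear site with values in all 4 vascular plants at which C. taxifolia lay inside their range. There it was 1 point below their median. In tRNA Ser(AGA), C48 had 100% in B. rapa, 87% in T. durum and 40% in G. biloba, against 70% in C. taxifolia.

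The other tRNA Ser isodecoders were lowered at the same position. In tRNA Ser(GCT), C48 had 89% in A. thaliana, 91% in B. rapa, 89% in T. durum and 92% in G. biloba, against 67% in C. taxifolia and 84% in N. oculata. In tRNA Ser(TGA), it had 100%, 80%, 85% and 97%, against 65% in C. taxifolia. The gaps below the lowest plant were 22 and 15 points, and the 3 tRNA Ser isodecoders lay within 5 points of each other in C. taxifolia.

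By position, the 9 compared nuclear C48 sites held 3 kept, 3 lowered and 3 lost sites, and all sites that were lost were C48 sites. The 4 sites at C49 held 1 kept and 3 lowered, and both sites at C38, both at C50 and the site at C72 were lowered. The median gap below the vascular median was 42.9 points at C38, 23 at C48, 25.8 at C49 and 45.3 at C50, from 2, 9, 4 and 2 sites that share tRNAs with one another. The site of tRNA Lys(CTT) at position 68, in the acceptor stem, was 13% in A. thaliana, 5% in B. rapa, 11% in T. durum, 25% in G. biloba and 0 in C. taxifolia. Counted from the 3′ end, this position is a T in the A. thaliana consensus, so what the low plant percentages measure is uncertain.

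The C48 values of nuclear tRNAs in C. taxifolia were also viewed by the neighbouring base. Where the A. thaliana consensus has a cytosine at position 49 (Asp, Gln, Glu and Gly), C48 was 0, 0, 6 and 24% in C. taxifolia, with a median of 3. Where it has another base (Ile, Lys and the 3 Ser), C48 was 65 to 87% with a median of 70, and these groups did not overlap among compared nuclear sites. In each of the 4 vascular plants they did overlap. A. thaliana had 23 to 92% with and 33 to 100% without a cytosine at 49, B. rapa 8 to 88% and 14 to 100%, and T. durum 40 to 90% and 76 to 91%. G. biloba had 59 and 83% against 40 to 97%, from only 2 tRNAs in the former group. N. oculata, with few values, did not overlap, with 13 to 64% in 3 tRNAs against 84% in 1. Other C48 sites went against the split. The compared chloroplast tRNAs Glu(TTC), with a G at 49 in A. thaliana, and initiator Met(CAT), with an A, were listed at 0 in C. taxifolia. tRNA Arg(CCT), with a G at position 49 in A. thaliana, was listed at 0 at C48 in C. taxifolia. tRNA Thr(AGT) had 69% at C48 and 76% at position 49, where the A. thaliana consensus has a T. A cytosine at 49 in C. taxifolia is inferred from that listed percentage, as its sequence was not available here. With tRNA Thr(AGT) counted as having a cytosine at 49 and Arg(CCT) included, C48 of nuclear tRNAs ran from 0 to 69% (median 6, n = 5) beside a cytosine. Beside another base it ran from 0 to 87% (median 68.5, n = 6).

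**Figure D3:**
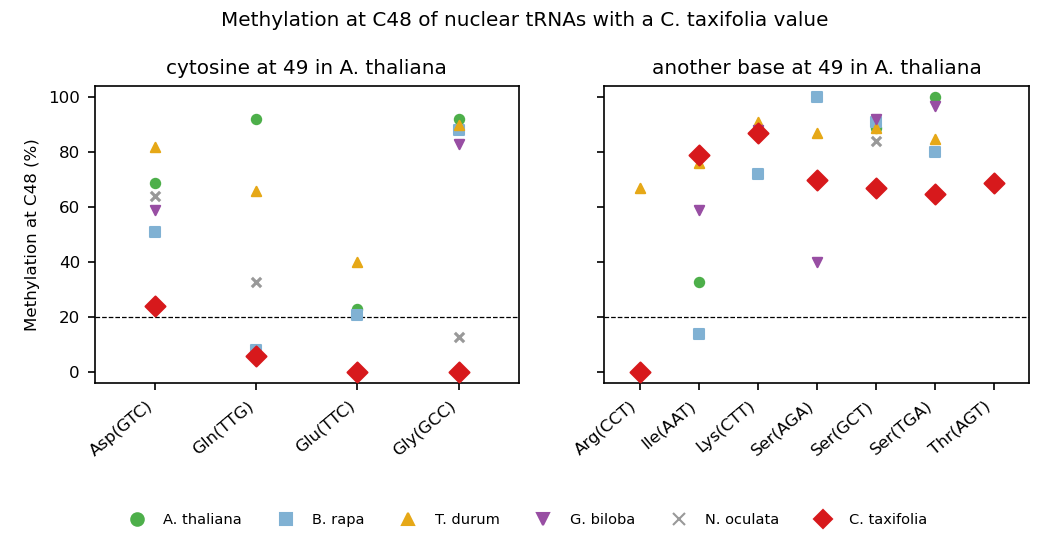
Methylation percentage at C48 (vertical axis) of each nuclear tRNA with a C. taxifolia value, separated by the base at position 49 of the A. thaliana consensus, with 1 symbol per species and a dashed line at 20%. C. taxifolia (red diamonds) lies between 0 and 24% in the left panel and between 65 and 87% in the right panel, except Arg(CCT) at 0. Thr(AGT), at 69%, also has a percentage listed at position 49 in C. taxifolia, where the A. thaliana consensus has a T.

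Within a tRNA, C49 was more methylated than C48 in C. taxifolia in all 4 isodecoders with both values and at least 2 vascular plants. The difference was 51 points in tRNA Asp(GTC), 88 in Gln(TTG), 64 in Glu(TTC) and 46 in Gly(GCC), with a median of 57.5. In the plants the same difference was 27.7, -92, 70.7 and 1.67 points in A. thaliana, 46, 46, 74 and 4 in B. rapa, and 15, 3, 31 and 0 in T. durum. G. biloba had 36 in Asp(GTC) and 0 in Gly(GCC). As a signed value, C49 minus C48, the difference was highest in C. taxifolia in Asp, Gln and Gly but not in Glu, where A. thaliana and B. rapa exceeded it. In tRNA Thr(AGT) the difference in C. taxifolia was 7 points.

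Some C. taxifolia values had no counterpart in 2 or more vascular plants. C49 of tRNA Ala(AGC) was 73% against 46% in A. thaliana, and C49 of tRNA Ala(TGC) was 83% against 60%. Both were above the only plant with a value, 27 and 23 points higher. C48 of tRNA Arg(CCT) was listed at 0 against 67% in T. durum. The 2 sites of tRNA Thr(AGT) had a value in C. taxifolia alone. Including these, 19 of the 24 nuclear percentages of C. taxifolia were 20% or more, and 3 were 80% or more (Gln(TTG) C49, Lys(CTT) C48 and Ala(TGC) C49).

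At 4 sites C. taxifolia had a base other than cytosine. Besides the G at position 50 of tRNA Asp(GTC), the nuclear tRNA Arg(TCG) has a T at position 48, where A. thaliana was methylated at 80%. The other sites of this kind are sites at which N. oculata alone had a percentage: position 39 of a tRNA Glu(TTC) of nuclear or mitochondrial origin, a G in C. taxifolia and 38% in N. oculata, and position 38 of a tRNA Asp(GTC) that could come from any genome, an A in C. taxifolia and 36% in N. oculata. The A. thaliana consensus holds the same G and the same A there, so C. taxifolia does not differ from A. thaliana at these positions. At position 49 of tRNA Ala(CGC), methylated at 80% in A. thaliana, the table gives 0 for C. taxifolia with a remark that the base could be a C or a T, so this cell was kept apart from the percentages.

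The chloroplast tRNAs with values were not methylated in C. taxifolia. C48 of chloroplast tRNA Glu(TTC) was listed at 0 in C. taxifolia, A. thaliana, B. rapa, G. biloba and N. oculata and at 90% in T. durum. C48 of the chloroplast initiator tRNA Met(CAT) was listed at 0 in C. taxifolia and in all 4 vascular plants, and at 63% in N. oculata.

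At 28 sites C. taxifolia was not determined, 24 of them nuclear. Of these, 22 sites in 13 isodecoders had values in at least 2 vascular plants, and 21 had a vascular median of 20% or more, with a median of 87.8% over the 22. The comparison therefore leaves out isodecoders such as Gln(CTG), Glu(CTC), Gly(CCC), Gly(TCC) and His(GTG), and nothing can be said here about C. taxifolia at those sites.

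C. taxifolia was lower than each vascular plant at most of the compared nuclear sites. It was below A. thaliana at 16 of 18 sites with a median gap of 32.8 points, below B. rapa at 16 of 19 with 27, below T. durum at 17 of 19 with 31, and below G. biloba at 12 of 14 with 29. As a background, each plant was held against the other 3 over its own sites. A. thaliana was below all of the others at 5.56% of 18 sites, T. durum at 10.5% of 19, B. rapa at 36.8% of 19 and G. biloba at 57.1% of 14. C. taxifolia was below the same 3 plants at 83.3%, 78.9%, 84.2% and 85.7% of those sites. The share for C. taxifolia was thus higher than that for each plant, by the least for G. biloba.

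The other alga was also lower than the plants. Over the 11 nuclear sites with values in both algae, N. oculata was below all vascular plants at 8 and C. taxifolia at 10. C. taxifolia was lower than N. oculata at 7 of the 11 and higher at 4, with a median gap of 6 points. The 4 higher sites were Asp(GTC) C38 and Gly(GCC) C38, C49 and C50. Among these nuclear sites, the sharpest contrast in the other direction was Asp(GTC) C48, with 24% against 64%.

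The order of the sites was only loosely shared with the plants. Across the 19 nuclear sites, Pearson's r between C. taxifolia and the vascular median was 0.431 and Spearman's rho 0.242, both given as descriptions because the sites of a tRNA share their reads and every C. taxifolia value shares a library. Without tRNA Lys(CTT) r was 0.249, and without B. rapa it was 0.275. At the 13 sites where the vascular median was 80% or more, C. taxifolia ranged from 0 to 87%.

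**Figure D4:**
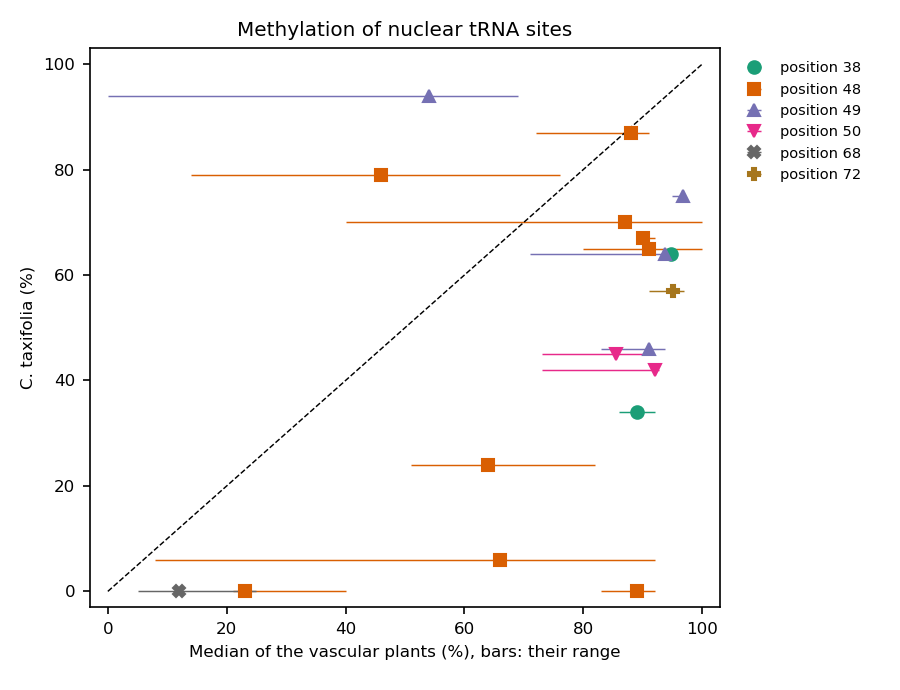
C. taxifolia percentage (vertical axis) against the median of the vascular plants (horizontal axis, bars for their range) at the 19 nuclear sites, with a symbol and color for each structural position. The dashed line marks equal values, and 17 of the 19 sites lie below it. Gln(TTG) C49 and Ile(AAT) C48 are the sites above it.

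The sequence to which reads were aligned moved with these classes. The annotation of the study lists 3 of the compared tRNAs (Gln(TTG), Ile(AAT) and Ser(AGA)) as matched in C. taxifolia only to a sequence of the closest annotated relative, and they held 3 of the 4 kept sites, 1 lost site and none of the lowered ones. The 5 sites of tRNAs matched only to A. thaliana (Gly(GCC) and Ser(GCT)) held 4 lowered and 1 lost, with a median gap of 45 points below the vascular median, and the 10 sites of tRNAs matched to both held 1 kept, 7 lowered and 1 lost, with 27.8 points. The part of the reference in the result was not tested. Without the tRNAs matched only to the relative, C. taxifolia was below the lowest plant at 14 of 15 sites. The median gap below the vascular median was then 30.8 points. Among these compared sites, C48 was 0 to 24% beside a cytosine at 49 and 65 to 87% beside another base, with 3 tRNAs each. Arg(CCT) and Thr(AGT) were not compared but were matched to both references. Arg(CCT), with another base at 49, was at 0 and went against this split, and Thr(AGT) was at 69%.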

How the data were processed

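The deposited table gives, per the file headers, the methylation of 59 tRNA sites in 6 species in percent (other cells hold a base, a remark or "not determined"). According to the study's methods, the authors made Illumina libraries from bisulfite treated, gel purified RNA, aligned trimmed reads with CLC Genomics Workbench (version not given in the sources used here) to in silico converted A. thaliana consensus sequences and to tRNAs of the closest annotated relative, and required a coverage of 5 reads and near complete conversion of a spiked-in unmethylated transcript. The 3 A. thaliana libraries share 1 deposited value per site. Alignment to another species' tRNAs can lose reads that differ from it, which would also change which sites are determined.

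C. taxifolia was set against the range and median of the vascular plants at sites with at least 2 plant values, without tests, in Python 3.11.15, and figures were drawn with Matplotlib 3.10.9. Every site with a C. taxifolia entry other than "not determined" was named. Positions were counted from the 3′ end (73 last) or, in the anticodon loop, from the anticodon. The class rules were tested on simulated data. Gene IDs of the 13 consensus sequences with a nuclear C. taxifolia percentage numbered 198, of which RefSeq lists 197 as tRNA genes. References were named from the study's annotation. Other thresholds, minimum numbers of plants, plants or tRNAs left out, the mean in place of the median and other groupings were tried. Read totals are not in this table, and RNA-seq abundances were not used. Sites and lists were chosen with earlier results of these data known.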

Additional observations from a re-analysis of the deposited data

How the results depend on the processing

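Of 72 recomputed values, which leave out the leave-one-out analysis over tRNAs, 64 moved by at most 1.5 times, 8 moved further and 0 reversed. With values required in at least 4 vascular plants, 2 sites were kept and 1 was lost, because fewer sites were compared. With the ambiguous cell of Ala(CGC) read as 0 and at least 1 plant required, 5 were lost. Pearson's r of 0.431 became 0.275 without B. rapa, and Spearman's rho was 0.242. Some analyses were chosen after seeing the data. Leaving out tRNAs aligned only to a relative left 1 kept site and a C48 median of 0 beside a cytosine at 49. Counting Thr(AGT) as having a cytosine at 49 gave a median of 6. In the leave-one-out analysis over tRNAs, the median difference from the vascular median ran from -30.8 to -23 points, r from 0.249 to 0.581, the C48 median from 0 to 6 beside a cytosine and from 68.5 to 74.5 beside another base, and the difference between C49 and C48 from 51 to 64 points. The C48 median beside a cytosine moved by more than 1.5 times whichever tRNA of its group was left out, and r did so without Lys(CTT). Lys(CTT) C48 would be lowered without B. rapa and Ser(AGA) C48 without G. biloba. The species were compared at matched sites, but their libraries were not paired. A. thaliana is deposited as 1 pooled value per site, so its replicates could not be left out. The unknown depth of each site limits all values of C. taxifolia.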
